A study of Mus musculus with 10 samples.

Results

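A set of 10 genes of the actomyosin machinery was described in the inner and outer cell layers of the mouse mammary gland: the heavy chains of non-muscle myosin II (Myh9, Myh10 and Myh14), its light chains (Myl6, Myl12a and Myl12b), myosin light chain kinase (Mylk), the ROCK kinases (Rock1 and Rock2) and the targeting subunit of myosin phosphatase (Ppp1r12a). These 10 genes were taken by name from a table of 24594 genes, and all of them were found there. Bulk RNA-seq had been carried out on luminal cells, which face the duct lumen, and on the contractile basal cells around them, from wild type C57BL/6J mice. Both cell types came from glands of virgin animals and were sorted by their EpCAM and CD49f surface levels, giving 5 libraries of luminal and 5 of basal cells. No treatment was applied and all libraries share one genotype. The labels give no age, do not divide luminal cells further and do not say whether the 5 libraries of a group came from separate animals, so p-values measure the spread between these libraries, which may be technical in part. The methods text gives a single replicate number and applies it to every RNA-seq sample of the study. That number is smaller than the 5 libraries in each group, and the difference is not explained there. The methods text also gives an age range for the mice used, without tying it to these libraries.

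Non-muscle myosin II is a hexamer of heavy chains, essential light chains and regulatory light chains, and it pulls on actin filaments in nearly every cell. Phosphorylation of the regulatory light chain switches the motor on. Myosin light chain kinase, driven by calcium, and the ROCK kinases raise this phosphorylation, and myosin phosphatase removes it. ROCK also phosphorylates the phosphatase's targeting subunit and thereby restrains it. In the mammary gland the basal cells carry a smooth-muscle-like form of this machinery and squeeze milk out of the alveoli, whereas luminal cells use it at their apical junctions. Mechanical signalling through ROCK and the transcription factor SRF in mammary epithelium is the setting in which the study was done.

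The phosphorylated pair of residues of the regulatory light chain is the point where the kinases and the phosphatase of the set meet, and its coding sequence shows how alike the light-chain genes are. The stretches below are from GENCODE M21 transcripts (GRCm38), 5′ to 3′, with codons 19 and 20, counted from the start codon, in capitals.
Myl12a: cctcagcgcgcaACCTCCaatgtgttcgcc
Myl12b: cctcagcgcgcaACCTCCaatgtgttcgcc
Myl9: ccccagagggctACGTCCaatgtcttcgcc
Myl12a and Myl12b are identical over all 30 bases, and 24 of the 30 are shared with Myl9, the smooth-muscle regulatory light chain. Over the whole coding sequence of 516 bases, Myl12a and Myl12b were 96.5% identical, and Myl12a and Myl9 85.7%.

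The heavy chains are compared at a conserved site. The loop of the motor head that holds the phosphate groups of ATP is shown for the 3 non-muscle chains and for Myh11, the smooth-muscle heavy chain.
Myh9: ggggagtctggagcagggaagaca
Myh10: ggtgaatcgggtgccgggaagaca
Myh14: ggagagtctggcgctgggaagacg
Myh11: ggtgagtctggagccggaaagaca
Of these 24 bases, 19 of Myh10, 20 of Myh14 and 21 of Myh11 are identical to Myh9. Over the full coding sequences Myh9 was 73.9% identical to Myh10 and 68.1% to Myh14, and Rock1 and Rock2 were 66.0% identical. Stretches of 50 bases that occur in both genes were 73 for Myh9 and Myh10 (0.989% of those in Myh9), and none were found between Myh14 and the other heavy chains or between Rock1 and Rock2. Reads of these genes can therefore be told apart over nearly all of their length, which is less so for the light chains. Myh9 and Myh11 had 26 such stretches in common (0.352% of those in Myh9). Myh9 was far more abundant than Myh10 in both layers, and than Myh11 in luminal cells. Reads from the shared stretches could therefore weigh more in those lower counts, and their part there was not tested.

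Library totals lay between 13203146 and 17565471 counts in luminal and between 13676558 and 17998165 in basal libraries. In all 10 libraries the title gives the other cell type than the cell type label, the source name and the letter of the library description, which match each other and were followed. All 12 luminal markers (Krt8, Krt18, Elf5, Prlr and others) were higher in the libraries labelled luminal, and all 7 basal markers (Krt5, Krt14, Trp63, Oxtr, Acta2, Myh11 and Cnn1) in those labelled basal. The luminal means of the 7 basal markers were 0.143% to 0.572% of their basal means. Single luminal libraries ran from 0.0259% (Cnn1, replicate 4) to 1.10% (Krt14, replicate 5) of the basal mean. The basal means of the 12 luminal markers were 0.0835% (Prlr) to 21.7% (Krt8) of their luminal means. The count of the least abundant of the 10 genes was never below 19 in a library.

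All 10 genes passed the filter on low counts. In edgeR's quasi-likelihood test 3 were higher in luminal cells (Myh14, Myl12a and Myl12b) and 5 in basal cells (Mylk, Myh9, Ppp1r12a, Myh10 and Rock2) at a Benjamini-Hochberg adjusted p under 0.05, and Myl6 and Rock1 did not pass. Of all 14609 genes tested, 64.8% passed, 33.6% as higher in luminal and 31.2% as higher in basal cells, and the share of calls among the 10 genes is near that background. The groups had no overlap for Myh14 on the luminal side and for the 5 genes called on the basal side. Among all genes tested 50.1% had none, 24.7% on the luminal and 25.3% on the basal side. The median log2 fold change, luminal against basal, was -0.67 over the 10 genes and 0.05 over all genes tested. In such bulk samples fewer cells of a type and less RNA per cell cannot be told apart.

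**Figure D1:**
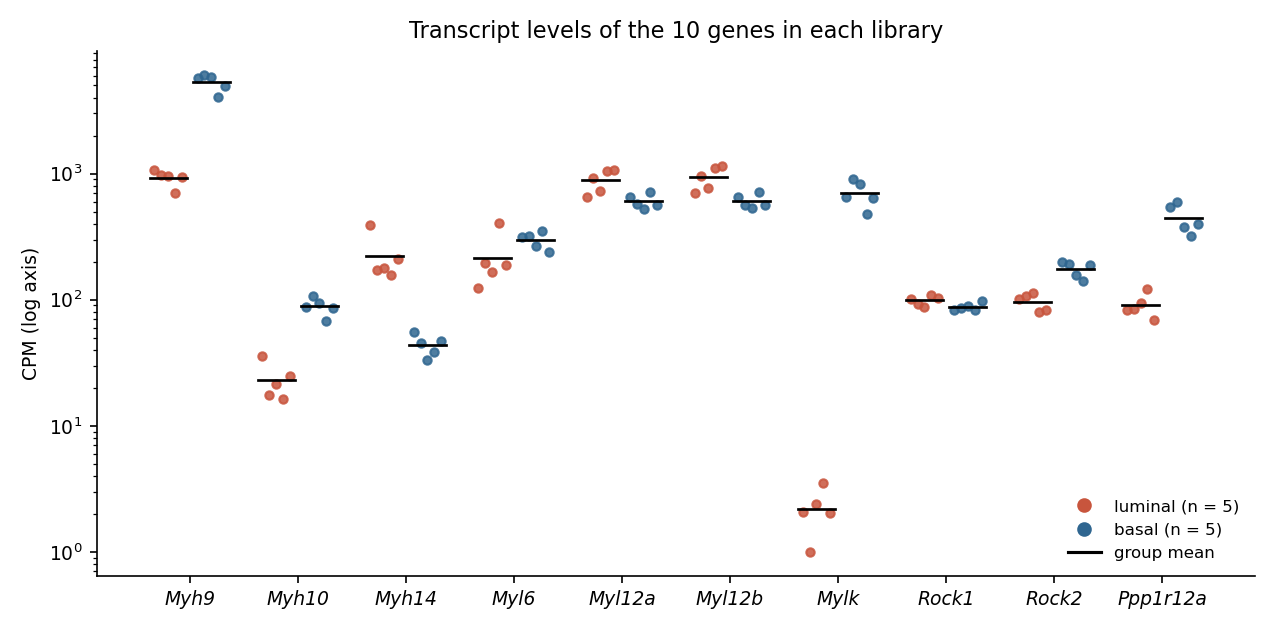
Transcript level of each gene in CPM (counts scaled to a common depth by TMM) on a log axis, 1 point per library, luminal in red and basal in blue (n = 5 each), with the group mean as a line. Mylk lies between 1.00 and 3.51 CPM in luminal and between 482 and 907 CPM in basal libraries, Myh9 and Ppp1r12a are also separated, and Rock1 overlaps.

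**Figure D2:**
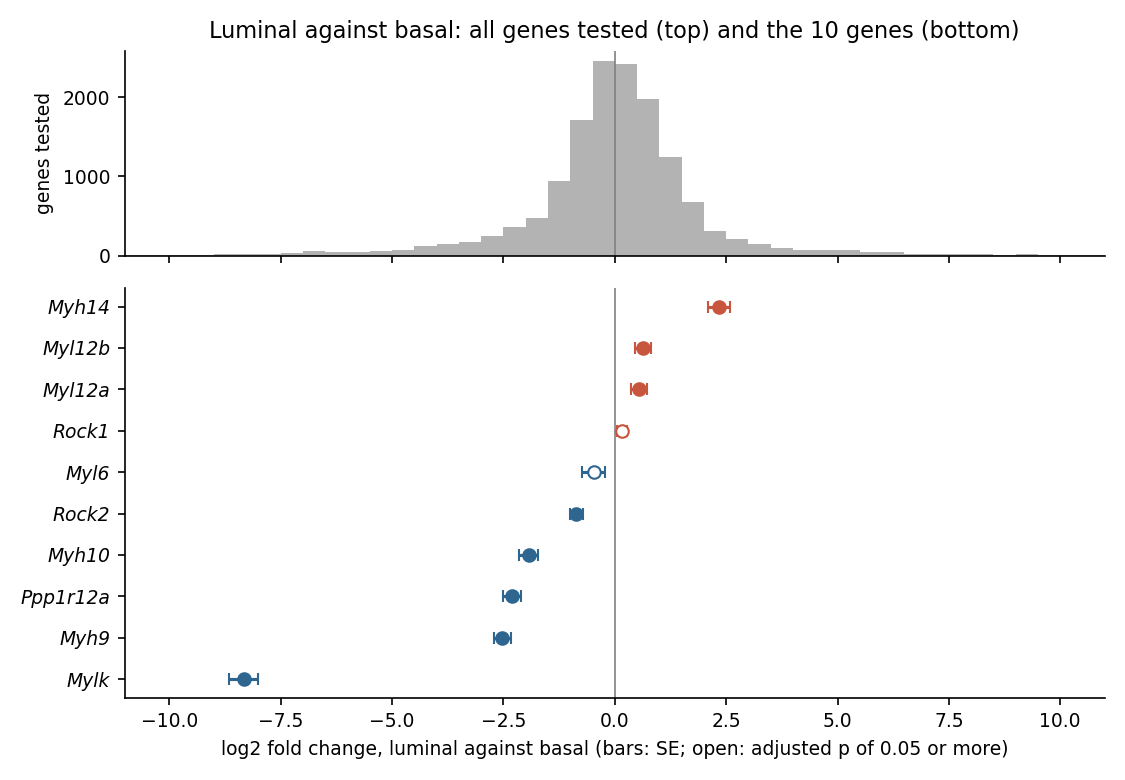
Log2 fold change, luminal against basal, of all 14609 genes tested (top, number of genes) and of the 10 genes with their standard errors (bottom). Filled points have an edgeR adjusted p under 0.05, and the points run from 2.33 for Myh14 to -8.33 for Mylk.

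Among the heavy chains, Myh9 and Myh10 were higher in basal cells and Myh14 in luminal cells. Myh9, which encodes non-muscle myosin IIA (chr15:77760585-77842175, minus strand, GRCm38.p6), measured 1060, 980.6, 962.8, 708.1 and 936.7 CPM in luminal replicates 1 to 5. In the basal replicates it measured 5717, 6100, 5860, 4032 and 4979 CPM. The lowest basal library was thus far above the highest luminal one, and replicate 4 was the lowest of both groups. The means were 929.5 ± 132 CPM for luminal and 5337 ± 841 CPM for basal libraries (SD, n = 5 each), a log2 fold change of -2.52 (SE 0.19, edgeR adjusted p = 3.93e-08). Of the 14609 genes tested, 1091 had a more negative fold change. Markers of other cell types that make Myh9 were present in both groups. The summed level of 5 endothelial markers, of which 3 were tested and 1 was higher in basal cells, was 2.69 to 7.10 CPM in luminal and 7.002 to 13.9 CPM in basal libraries. For 6 immune markers, of which 3 were tested, 2 higher in luminal cells and 1 in basal, it was 4.13 to 11.3 and 12.2 to 34.6 CPM, with Cd3e at 0 in every library and Cd79a at 0 in the luminal ones. Of 5 fibroblast markers, all tested, 1 was higher in luminal and 1 in basal libraries, and their sum was 22.1 to 113 CPM in luminal and 24.8 to 41.5 CPM in basal libraries. Pericyte markers are given with Mylk. The study's methods describe staining of blood and endothelial cells (TER-119, CD31, CD45) for its flow cytometry of mammary cells, while the labels of these libraries name only EpCAM and CD49f. The part of these cells in the Myh9 values was not tested.

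Myh10, which encodes non-muscle myosin IIB (chr11:68691915-68816626, plus strand), was far less abundant. It measured 36.1, 17.7, 21.3, 16.3 and 24.7 CPM in the luminal and 87.0, 106.8, 95.02, 68.2 and 85.8 CPM in the basal replicates. The groups did not overlap, and luminal replicate 1 came closest to the basal range. The log2 fold change was -1.93 (SE 0.21, edgeR adjusted p = 2.00e-06), with means of 23.2 ± 7.90 and 88.6 ± 14.1 CPM (SD, n = 5 each).

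Myh14, which encodes non-muscle myosin IIC, a form known mostly from epithelia (chr7:44605803-44670872, minus strand), ran the other way. Luminal replicates held 387.9, 172.3, 179.4, 157.1 and 210.3 CPM and basal replicates 55.4, 45.2, 33.5, 38.6 and 47.2 CPM. Every luminal library was above every basal one, and luminal replicate 1 stood apart from the other luminal libraries. The means of 221 ± 95.1 and 44.0 ± 8.39 CPM (SD, n = 5 each) gave a log2 fold change of 2.33 (SE 0.24, edgeR adjusted p = 1.30e-06), and 2.05 without luminal replicate 1. The basal mean was 19.9% of the luminal one. Of the 12 luminal markers, Krt8 (21.7%), Esr1 (15.4%) and Krt18 (14.2%) stood near that level in basal libraries, and the other 9 between 0.0835% and 3.15%. The part of luminal transcripts in the basal value of Myh14 was not tested.

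To compare the heavy chains with each other, CPM was divided by the length of each gene's principal transcript. On that scale the luminal order was Myh9 (125 ± 17.8 CPM per kb), Myh14 (34.7 ± 14.9) and Myh10 (2.98 ± 1.01), each mean ± SD with n = 5. The basal order was Myh9 (718 ± 113 CPM per kb), Myh10 (11.4 ± 1.82) and Myh14 (6.89 ± 1.31). Neighbours in both orders did not overlap on this scale, since Myh10 was at 8.75 to 13.7 and Myh14 at 5.24 to 8.68 CPM per kb in basal libraries. With the length of all annotated exons, basal Myh10 (6.52 to 10.2 CPM per kb) and Myh14 (4.61 to 7.62) did overlap. The summed level of the 3 non-muscle chains was 163 ± 30.5 CPM per kb in luminal and 736 ± 115 in basal cells.

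As a share of that sum, Myh14 made up 29.2%, 16.7%, 17.5%, 20.2% and 20.3% in luminal replicates 1 to 5. In basal libraries its share was between 0.651% and 1.10%. Myh9 took 77.4% ± 5.24 of the luminal and 97.5% ± 0.205 of the basal sum, and Myh10 1.80% ± 0.307 and 1.55% ± 0.0845 (SD, n = 5 each). Nearly all non-muscle heavy-chain transcript of basal cells was thus Myh9, and luminal cells added a sizeable portion of Myh14. With the length of all annotated exons in place of the principal transcript, the share of Myh14 was 28.4% in luminal and 1.44% in basal cells. These shares are of transcript and not of protein.

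Basal cells also carried the smooth-muscle heavy chain Myh11, at 1461 ± 407 CPM (SD, n = 5) against 2.09 ± 1.09 CPM in luminal cells (log2 fold change -9.45, SE 0.38, edgeR adjusted p = 1.65e-10). With Myh11 included in the sum, Myh9 was still the leading heavy chain of basal cells with 74.9% ± 2.38, followed by Myh11 with 23.2% ± 2.56 (SD, n = 5 each).

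**Figure D3:**
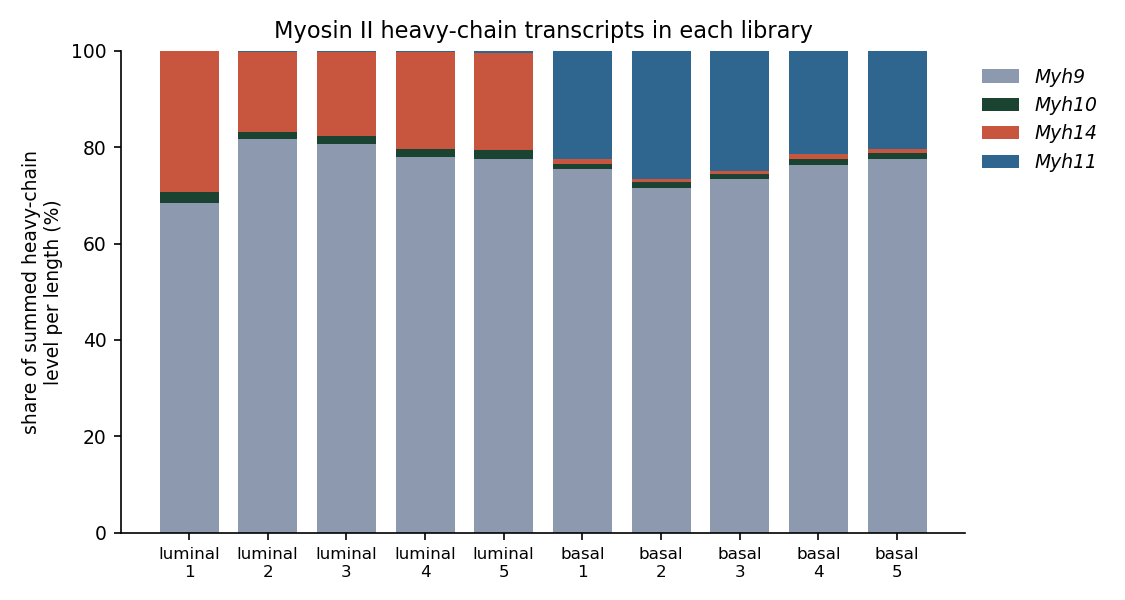
Share of each heavy chain (%) in the summed level per length of principal transcript of Myh9, Myh10, Myh14 and Myh11, 1 stacked bar per library. Luminal bars hold 16.7% to 29.2% Myh14, and basal bars 20.4% to 26.6% Myh11 and 0.488% to 0.854% Myh14.

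Ratios within a library do not depend on how the library is scaled, and the contrast of isoforms was tested on them. The log2 ratio of Myh14 to Myh10 counts was between 3.07 and 3.43 in luminal and between -1.50 and -0.65 in basal libraries, an 18.9-fold difference (4.24 on the log2 scale, SE 0.17). For Myh14 to Myh9 the difference was 27.6-fold (4.79 on the log2 scale, SE 0.24). Even Myh10 to Myh9 differed, with a ratio 1.46-fold higher in luminal cells (0.55 on the log2 scale, SE 0.16), so the basal excess was larger for Myh9 than for Myh10. None of these ratios overlapped between the groups. For Myh14 to Myh9 and Myh14 to Myh10 this was fixed in advance, since the single genes were already apart on opposite sides. How often ratios of other gene pairs do not overlap was not examined. Each of these ratios had a two-sided exact permutation p of 0.00794 (n = 5 each), the smallest that 5 against 5 libraries can give. Benjamini-Hochberg adjustment over the 6 ratios tested left that value unchanged, and all 6 share it, so it does not rank them.

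**Figure D4:**
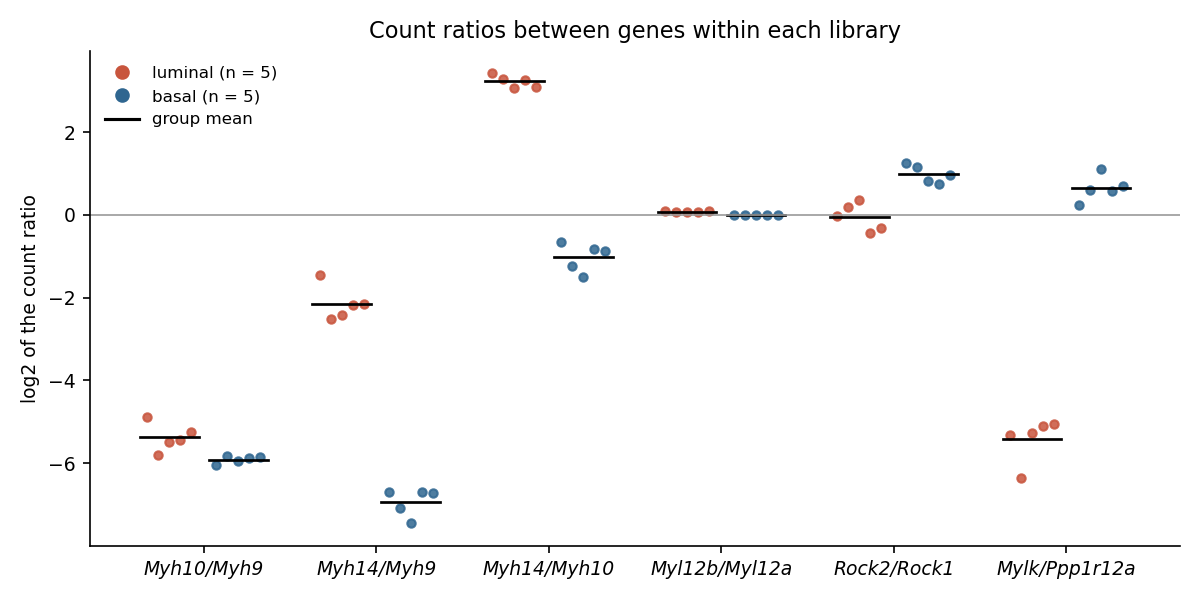
Log2 of the ratio of counts of the named pair in each library (luminal red, basal blue, n = 5 each, lines at the group means). Myh14/Myh9, Myh14/Myh10 and Mylk/Ppp1r12a are widely separated between the layers, and Rock2/Rock1 lies between -0.43 and 0.37 in luminal and between 0.75 and 1.27 in basal libraries.

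The light chains differed much less. Myl6, the essential light chain (chr10:128490859-128493886, minus strand), measured 124.8, 195.6, 164.4, 404.5 and 189.0 CPM in luminal and 315.6, 321.4, 268.4, 351.5 and 237.1 CPM in basal replicates. Luminal replicate 4 was above every basal library, while the other 4 luminal libraries were below all of them. The log2 fold change was -0.47 (SE 0.26, edgeR adjusted p = 0.127), and without luminal replicate 4 it was -0.83 with an adjusted p of 0.000700. Myl6 also passed when same-numbered libraries were fitted as a replicate block (-0.58, edgeR adjusted p = 0.0301). In 53.3% of the 50-base stretches of its principal transcript Myl6 matches other gene models, among them Gm5526, so its count depends on how such reads were assigned.

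Myl12a (chr17:70993793-71002533) and Myl12b (chr17:70973963-70990516), both on the minus strand, encode near-identical regulatory light chains and lie beside each other. Myl12a measured 655.8, 919.1, 734.5, 1043 and 1071 CPM in luminal and 656.0, 569.3, 528.9, 710.7 and 563.1 CPM in basal replicates. Its log2 fold change was 0.55 (SE 0.17, edgeR adjusted p = 0.0126), with luminal replicate 1 inside the basal range. For Myl12b the values were 705.7, 957.9, 770.4, 1102 and 1140 CPM in luminal and 651.2, 568.0, 530.4, 711.0 and 560.8 CPM in basal replicates. Its log2 fold change was 0.63 (SE 0.17, edgeR adjusted p = 0.00525), and luminal replicate 1 again fell inside the basal range.

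The values of this pair followed each other closely, most of all in basal libraries. The 2 counts, between 6836 and 11368 for Myl12a, differed there by 4 to 77 reads. Their log2 ratio had an SD of 0.0056, whereas sampling noise alone between separate sets of reads of that size would give about 0.022. In luminal libraries the SD was 0.018 against 0.017 from sampling noise, and Myl12b was 4.22% to 7.61% above Myl12a. Both principal transcripts have 192 stretches of 50 bases in common (10.2% of those in Myl12a). The GENCODE annotation also holds a longer model under the name Myl12b that runs across Myl12a. Over all gene models, 29.6% of the stretches of Myl12a matched other genes, Myl12b most of all. How the reads of the pair were assigned is not given in the sources used here, and its part in these values was not tested. Whether the rows are separate measurements is thus uncertain, and with Myl12b left out 2 of the remaining 9 genes were called on the luminal and 5 on the basal side. The difference in their ratio (0.08 on the log2 scale, exact permutation p = 0.00794, n = 5 each) carries the same uncertainty.

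Myl9, the smooth-muscle counterpart, lay between 166 and 316 CPM in basal libraries. Among luminal libraries it was at 8.09 CPM in replicate 4 and between 0.188 and 1.40 CPM in the others. The log2 fold change was -6.80 (SE 0.73, edgeR adjusted p = 1.70e-06) and -8.46 without luminal replicate 4. Basal cells thus combined Myl12a at 606 ± 75.2 CPM with Myl9 at 224 ± 66.9 CPM (SD, n = 5 each), whereas luminal cells had Myl12a and very little Myl9. The Myl12b row, with means of 935 CPM in luminal and 604 CPM in basal libraries, was left out of this comparison. It was also left out of the shares that follow, which are thus not shares of all regulatory light chains. Per length of principal transcript, Myl9 made up 38.5% ± 8.79 of the sum of Myl12a and Myl9 in basal cells (SD, n = 5). With the length of all exons it made up 50.9% ± 9.17, so which of them led there depended on the length used.

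The kinases ranged from the largest difference of the set to the smallest. Mylk (chr16:34745199-35002436, plus strand) encodes the kinase dedicated to the regulatory light chain, which smooth muscle uses to contract. Luminal libraries held 2.06, 1.00, 2.39, 3.51 and 2.03 CPM, from 19 to 46 counts, and basal libraries 647.4, 907.3, 822.3, 482.0 and 642.4 CPM. The basal mean of 700 ± 167 CPM was 322-fold the luminal mean of 2.20 ± 0.90 CPM (SD, n = 5 each), and the log2 fold change was -8.33 (SE 0.33, edgeR adjusted p = 1.40e-10). Only 56 of the 14609 genes tested had a more negative fold change. The luminal mean was 0.314% of the basal one, inside the range of the luminal means of the basal markers (0.143% to 0.572%). Whether these luminal counts came from luminal cells or from the few basal transcripts in those libraries was not tested.

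Mylk produces several proteins, a long and a short kinase and a kinase-free fragment, and a count per gene does not separate them. Its exons overlap 2 gene models on the opposite strand over 6.85% of their length. Of these, E130310I04Rik had 173 to 515 counts in basal libraries and 0 to 6 in luminal ones. Smooth-muscle genes are also made by pericytes. Of 7 pericyte markers 6 were tested, and 5 were higher in basal libraries and Notch3 in luminal ones. The sum of all 7 was 94.9 to 269 CPM in luminal and 41.95 to 65.97 CPM in basal libraries, most of the luminal sum being Notch3. Without Notch3 it came to 0 to 2.76 CPM in luminal and 35.6 to 59.2 CPM in basal libraries, and no marker was at 0 in all basal libraries. The labels name a sort by EpCAM and CD49f. How many pericytes it left, and their part in the basal values of Mylk, Myh11 and Myl9, was not tested.

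The ROCK kinases differed from each other in their contrast. Rock1 measured 101.9, 92.4, 87.2, 108.3 and 103.7 CPM in luminal and 83.6, 85.4, 89.4, 83.2 and 98.1 CPM in basal replicates. The ranges overlapped, and Rock1 had the smallest log2 fold change of the 10 genes under TMM scaling (0.17, SE 0.12, edgeR adjusted p = 0.222). It was the steadiest gene of the set as well, with a coefficient of variation of 8.76% over luminal and 7.03% over basal libraries. Under the upper-quartile and library-total scalings, which moved the median of all genes by 0.12 and 0.19, its log2 fold change was 0.29 and 0.35 and passed the threshold (adjusted p = 0.0390 and 0.0170).

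Rock2 (chr12:16894978-16988274, plus strand) measured 100.6, 106.2, 112.9, 80.4 and 82.8 CPM in luminal and 200.8, 191.0, 156.8, 139.9 and 190.2 CPM in basal replicates. All basal libraries were above all luminal ones. The means of 96.6 ± 14.4 and 176 ± 26.1 CPM (SD, n = 5 each) gave a log2 fold change of -0.86 (SE 0.15, edgeR adjusted p = 0.000142). The ratio of Rock2 to Rock1 was 2.04-fold higher in basal cells (-1.03 on the log2 scale, luminal minus basal, SE 0.18, exact permutation p = 0.00794, n = 5 each). Per length of principal transcript, Rock2 exceeded Rock1 in basal cells, with 62.5% ± 3.58 of their sum (SD, n = 5). In luminal cells Rock2 had 45.1% ± 5.80, with values on both sides of an equal share, and 55.8% with the length of all exons, so which ROCK led there depended on the length used. With the length of all exons, single luminal libraries ran from 49.2% to 62.8% Rock2. Whether the 2 kinases differ from each other within luminal cells was not tested.

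Ppp1r12a, which encodes MYPT1, the subunit that brings the phosphatase to myosin (chr10:108162092-108279985, plus strand), was among the genes with a strong basal excess. Luminal replicates held 82.9, 84.7, 94.1, 121.9 and 68.9 CPM and basal replicates 546.4, 594.3, 380.7, 320.5 and 397.5 CPM. The groups were far apart, with means of 90.5 ± 19.7 and 448 ± 117 CPM (SD, n = 5 each). The log2 fold change was -2.31 (SE 0.21, edgeR adjusted p = 2.53e-07).

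The gene for the kinase and the gene for the phosphatase subunit thus were both higher in basal cells, to different degrees. The log2 ratio of Mylk to Ppp1r12a counts was -5.42 ± 0.54 in luminal and 0.65 ± 0.31 in basal libraries (SD, n = 5 each). The difference of -6.07 (SE 0.28) is a 67.3-fold lower ratio in luminal cells (exact permutation p = 0.00794, n = 5 each). Luminal replicate 2 was the lowest with -6.37, and the others lay between -5.31 and -5.06.

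The remaining genes of the pathway were read from lists of 50 genes in all, of which 45 were tested. In luminal cells 14 were higher, in basal cells 23, and 8 were not called, with a median log2 fold change of -0.33. The counts of these lists are to be read beside the 33.6% and 31.2% of all genes tested that were called on the luminal and the basal side. All 6 smooth-muscle counterparts were higher in basal cells, with a median of -7.80. Besides Myh11 and Myl9 they included the actin Acta2, at 11.6 CPM in luminal and 5195 CPM in basal cells (-8.81), and the actin-binding calponin gene Cnn1 (-9.02, edgeR adjusted p = 3.24e-10). Acta2, Cnn1 and Myh11 also served as basal markers and are no independent evidence of the direction.

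**Figure D5:**
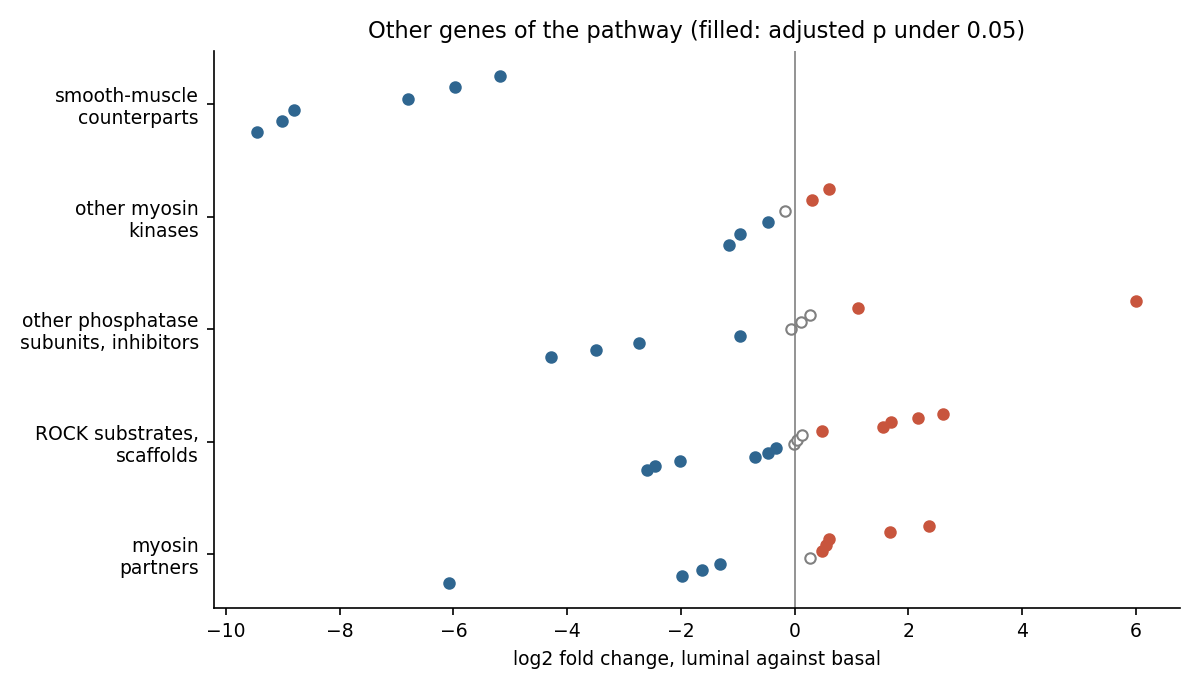
Log2 fold change, luminal against basal, of the 45 other pathway genes tested, 1 point per gene in 5 lists, filled where the edgeR adjusted p was under 0.05 (red higher in luminal, blue higher in basal). Smooth-muscle counterparts all lie at -5.18 or lower, and the ROCK substrates and scaffolds lie on both sides of 0.

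Other kinases of the light chain had fold changes of smaller size than Mylk. Of 10 such genes 6 were tested, 2 higher in luminal (Dapk1 and Cdc42bpb), 3 in basal cells (Cdc42bpg, Cdc42bpa and Dapk2, the last chosen after its values were seen) and Dapk3 not called, with a median of -0.32. Mylk2, Mylk3, Mylk4 and Cit did not pass the filter on low counts. Dapk2 was low in both layers, with means of 2.98 CPM in luminal and 5.80 CPM in basal cells. Dapk1, a death-associated kinase, was at 170.5 ± 10.7 CPM in luminal and 112 ± 7.65 CPM in basal cells (SD, n = 5 each; log2 fold change 0.61, edgeR adjusted p = 0.000309). The MRCK kinase gene Cdc42bpg had a log2 fold change of -1.15 (edgeR adjusted p = 4.43e-05), while Cdc42bpb (0.31, edgeR adjusted p = 0.0496) and Cdc42bpa (-0.47, edgeR adjusted p = 0.0349) passed only narrowly. The call of Cdc42bpb was lost with DESeq2 (adjusted p = 0.0775), limma voom (0.0526), the replicate block, DESeq2 size factors, no filter, and without luminal replicate 1, 3 or 5 or any basal library, with an adjusted p of up to 0.165. That of Cdc42bpa was lost with upper-quartile factors, library totals, and without luminal replicate 2, 4 or 5 or basal replicate 1, 2, 3 or 5, with an adjusted p of up to 0.235.

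Of 10 other phosphatase subunits and inhibitors 9 were tested, with 2 higher in luminal, 4 in basal cells, 3 not called and a median of -0.06. Ppp1cb, which encodes the catalytic subunit that Ppp1r12a targets, was at 714 CPM in luminal and 743 CPM in basal cells (-0.06, SE 0.16, edgeR adjusted p = 0.771, chosen after its values were seen). Ppp1r12b, the relative of Ppp1r12a found in striated and smooth muscle, was at 10.5 ± 1.78 CPM in luminal and 119 ± 33.4 CPM in basal cells (SD, n = 5 each; -3.50, edgeR adjusted p = 3.94e-09). Ppp1r12c was lower in luminal cells as well (-0.96, edgeR adjusted p = 8.69e-06), whereas the related subunit gene Ppp1r16a was higher (1.12, edgeR adjusted p = 1.66e-05). The other calls were Ppp1r14d on the luminal and Ppp1r14a and Ppp1r16b on the basal side, each under 10 CPM in both layers and chosen after their values were seen.

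Calls among the 14 ROCK substrates and scaffolds were near the shares of all genes. In luminal cells 5 were higher (Ezr, Ssh2, Ssh3, Shroom1 and Shroom2), in basal cells 6, and 3 were not called, with a median of 0.02. Ezr (ezrin) and Msn (moesin), related linkers of actin to the membrane, took opposite sides. Ezr was at 337 ± 69.4 CPM in luminal and 74.9 ± 11 CPM in basal cells (SD, n = 5 each; log2 fold change 2.17, edgeR adjusted p = 6.72e-08). Msn was at 120 ± 8.79 and 659 ± 51.7 CPM (SD, n = 5 each; -2.46, edgeR adjusted p = 1.90e-09). The Shroom scaffolds, which bind ROCK, were split too, with Shroom1 higher in luminal (2.61, edgeR adjusted p = 2.03e-07) and Shroom4 in basal cells (-2.59, edgeR adjusted p = 1.15e-06). Ssh2, a phosphatase that activates cofilin, was higher in luminal cells (1.70, and 1.40 without luminal replicate 4), and Cfl2, the muscle form of cofilin, in basal cells (-2.01, edgeR adjusted p = 7.14e-08). Cfl1, Limk2 and Ssh1 were not called, with log2 fold changes between -0.01 and 0.13.

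Of 10 partners of myosin, 5 were higher in luminal cells (S100a4, Anln, Tpm3, Lurap1 and Myo18a), 4 in basal cells (Tpm1, Tpm2, Tpm4 and Unc45a) and Svil was not called, with a median of 0.38. S100a4 (means of 2.95 CPM in luminal and 0.563 CPM in basal cells) and Anln (8.155 and 2.54 CPM) were under 10 CPM in both layers. The tropomyosins, which coat actin filaments and select the myosins that bind, again differed by form. Tpm2 was at 12.4 ± 2.20 CPM in luminal and 838 ± 188 CPM in basal cells (SD, n = 5 each; -6.08, edgeR adjusted p = 1.12e-10), and Tpm1 followed with -1.62 (edgeR adjusted p = 7.93e-07). Tpm3 was higher in luminal cells (0.55, edgeR adjusted p = 0.000915). Unc45a, a chaperone that folds myosin heads, had a log2 fold change of -1.98 (edgeR adjusted p = 3.57e-08). Myo18a, an unconventional myosin, and Lurap1, which links it to the MRCK kinases, were higher in luminal cells (0.60 and 0.48, edgeR adjusted p = 0.00552 and 0.0413), and the call of Lurap1 was lost under several alternatives (adjusted p up to 0.0943).

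Promoters were searched for the CArG box, the motif by which SRF binds, because SRF signalling is part of the study's setting. The motif is its own reverse complement, so one search covers both strands, and 1.63% of 32851 RefSeq promoters (GRCm38.p6, 250 bases before to 50 after the start) hold it. Of the 10 genes, 9 had a promoter in the table and Myl6 alone held a match, in 1 of its 2 promoters. Of the smooth-muscle counterparts only the promoter of Myl9 was searched, and it held a match. The windows below, at chr10:128493040-128493069 (minus strand) and chr2:156775293-156775322 (plus strand), show the box in capitals.
Myl6: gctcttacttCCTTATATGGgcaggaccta
Myl9: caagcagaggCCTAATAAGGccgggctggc
A match describes these letters and is not a binding site. For Mylk, Myh9 and Ppp1r12a only 1 promoter each was searched, and none held these letters. Since 1.63% of all promoters hold the motif, few genes would show it in 1 window. Sites elsewhere in these genes were not searched, and regulation by SRF was not tested.

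Genes whose pattern was most like Myh14 and Mylk over the 10 libraries were found by Pearson's r of log2(CPM + 1), given as a description, since the contrast of the layers is shared by all points. For Myh14 they were Enpp4 (0.990), Chp1 (0.989) and Meltf (0.988), and 401 genes had an r over 0.95. For Mylk they were Tenm2 (0.999), Adam12 (0.999) and Dact3 (0.998), and 1380 genes had an r over 0.95.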

How the data were processed

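The deposited table holds counts of reads for each gene, not normalized by the authors, in 1 column per library. Per the labels, RNA of sorted cells went into NEBNext Ultra II libraries. The submitters' processing notes name cutadapt 4.2, Bowtie2 2.3.5.1 and the builds mm10 and hg19, and the counting tool, annotation and strand setting are not given in the sources used here. Bowtie2 does not align across splice junctions, which can lower counts of genes with short exons. Of 24594 genes 24570 matched a symbol (RefSeq, GRCm38.p6). The 10 genes, the lists and the tests were chosen with earlier results of these data known. filterByExpr of edgeR 4.0.16 (minimum count 10, minimum total 15) kept 14609 genes, dropping 9985. TMM-scaled counts were fitted by edgeR's quasi-likelihood test (R 4.3.3), luminal against basal, with Benjamini-Hochberg adjustment over all genes tested. Each SE was taken from the fold change and its F statistic. Ratios used counts + 0.5 and a two-sided exact permutation test (scipy 1.17.1). Levels per length used the principal GENCODE M21 transcript. Named list genes are up to 3 per direction with the largest fold change, an adjusted p under 0.05 and a mean of at least 10 CPM, besides Myh11 and Myl9. Other list genes that the text mentions, such as S100a4, Anln, Cfl1, Limk2 and Ssh1, fall outside this rule. edgeR was tested on simulated data, and no outcome of that test is reported here. Alternatives were other scalings and filters, DESeq2 1.42.0, limma voom 3.58.1, a replicate block and leaving out each library. Genes of other pathway lists are not reported here.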

Additional observations from a re-analysis of the deposited data

Results flagged for a closer look

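A sample far from the others of its group was looked for in 78 groups of 5 libraries with Dixon's ratio at the 95% level, and 9 were found where chance gives about 3.9 (1 in 20). Myh14 was at 387.9 CPM in luminal replicate 1 and between 157.1 and 210.3 CPM in the other luminal libraries. Luminal replicate 4 held 404.5 CPM of Myl6, and the others 124.8 to 195.6 CPM. The same library was the highest for Myl9, with 8.093 CPM against 0.188 to 1.396, and for Ssh2, with 1766 CPM against 689.7 to 1001. In luminal replicate 5 Myh11 measured 3.997 CPM, and 1.251 to 1.843 CPM elsewhere in the group. In luminal replicate 2 Shroom4 measured 25.65 CPM (9.693 to 12.67 CPM in the others), and the log2 ratio of Mylk to Ppp1r12a was -6.366 there, against -5.306 to -5.063. Dapk1 was low in luminal replicate 3 with 151.6 CPM, against 173.1 to 176.8 CPM. Cdc42bpa was low in basal replicate 4 with 38.14 CPM, against 53.47 to 59.66 CPM.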

How the results depend on the processing

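No value reversed its direction. Of 189 alternative values of the 10 genes, 185 kept their side of the threshold and 4 passed it: Myl6 without luminal replicate 4 (-0.83, adjusted p = 0.000700) and with the replicate block (-0.58, adjusted p = 0.0301), and Rock1 with upper-quartile factors (0.29) and library totals (0.35). Over the 10 genes and the named list genes, 588 of 624 values kept their side, 32 no longer passed (Cdc42bpb, Cdc42bpa and Lurap1) and the same 4 newly passed. The cause was not tested. Leaving out each library gave 3 genes of the set on the luminal and 5 to 6 on the basal side, 11 to 14 and 20 to 23 of the other pathway genes, and 4625 to 5012 and 4251 to 4612 of all genes. The other alternatives gave 2 to 4 and 5 to 6, 12 to 16 and 19 to 23, and 4178 to 5705 and 3705 to 5089. Reading Myl12a and Myl12b as 1 gene was chosen after seeing the data.

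Same-numbered luminal and basal libraries share a number whose meaning the labels do not give. Their deviations from the group means correlated at -0.095, 0.098, -0.039, 0.149 and 0.060, and 2 of 5 libraries matched their own number best, so the pairing was not used. With the replicate block 4740 of all genes were called on the luminal and 4539 on the basal side. Paired, the log2 ratio differences were 0.545 (Myh10/Myh9), 4.785 (Myh14/Myh9), 4.24 (Myh14/Myh10), 0.0839 (Myl12b/Myl12a), -1.028 (Rock2/Rock1) and -6.073 (Mylk/Ppp1r12a), each with an exact sign-flip p of 0.0625, the smallest that 5 pairs can give.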
